A study of Mus musculus with 16 samples.

Results

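RNA of cortical endothelial cells was compared between adult mice that carried a deletion and their wild-type (WT) littermates. The deletion, 16p11.2 df/+, removes 1 of the 2 copies of a chromosome 7 interval that corresponds to human 16p11.2. The comparison holds 8 of the 16 libraries of the study, 4 df/+ and 4 WT libraries at postnatal day 50 (P50), and the other 8 were made from the same genotypes at postnatal day 14 (P14). The 8 were chosen by their labels, and the comparison was made over the 15368 genes with enough reads to be tested. Numbers after the letter S in the labels were 2, 4, 5 and 6 for df/+ and 13 to 16 for WT. What these numbers record was not tested, and anything that goes with them cannot be told apart from genotype at P50. The deletion is constitutive, so every cell of the animal carries it. It was passed on by df/+ males crossed to WT females, on a background given as mixed B6/129 for both groups. Whether the mice of both genotypes carried the same strain alleles was not tested. Endothelial cells were taken with beads against CD31 after myelin and CD45-positive cells had been depleted, and RNA was extracted without culture. Each library pooled the cells of 2 mice, so the spread between replicates is a spread between pools. In such bulk RNA, fewer cells of a type and less RNA per cell cannot be told apart.

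Brain endothelial cells line the cerebral vessels and form the blood-brain barrier. Tight junctions seal the gaps between them, and transporters in their membranes carry sugars, amino acids and ions between blood and tissue. Wnt signals from the surrounding tissue maintain this barrier state, while VEGF and Notch signals guide sprouting and arterial identity. Human 16p11.2 deletion is among the frequent copy number changes associated with autism, and the study used the mouse deletion to ask for a vascular contribution. Among the genes of the interval are Mapk3, which encodes the kinase ERK1, and Taok2 and Kctd13, which have been studied mainly in neurons.

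The libraries were checked first. Total counts were 14303921 to 17639603 in WT and 15611059 to 18737781 in df/+. The endothelial identity list had all 32 of 32 members tested, and their summed level was 27523 to 30424 counts per megaread (CPM) in WT and 28281 to 34352 CPM in df/+. Cdh5, which encodes the endothelial cadherin, stood at 975 to 1290 CPM in WT and at 966, 469, 1252 and 1188 CPM in df/+ replicates 1 to 4. Replicate 2 of df/+ stood apart from the other 7 libraries in several measures. It had the lowest share of uniquely mapped reads, 85.63%, and the highest share of multimapped reads, 9.05%. On the leading principal component, which held 62.9% of the variance between the 8 libraries, it scored 172 while the others lay between -54.0 and 15.1.

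The libraries also differed in how their counts depended on transcript length. For each library, the log2 ratio of each gene to the P50 median library was set against log2 transcript length. The slopes were 0.125, -0.048, 0.071 and -0.177 log2 units per doubling of length in WT replicates 1 to 4. In df/+ replicates 1 to 4 they were -0.120, -0.352, 0.182 and 0.154. Both genotypes thus held libraries tilted toward long and toward short transcripts, with df/+ replicate 2 the most tilted toward short ones and df/+ replicates 3 and 4 toward long ones. The mean slope differed by -0.0267 (df/+ minus WT), with p = 0.914 in an exact 2-sided permutation test over the 8 libraries, whose smallest possible p is 0.0286. At P14 the slopes of the 8 libraries were smaller, between -0.072 and 0.059. Slopes with GC content had the opposite pattern, from 0.676 log2 units per 10% GC in df/+ replicate 2 to -0.344 in df/+ replicate 3. Each result below is therefore given with the counts as deposited and, where it matters, after a smooth trend with transcript length and GC content had been removed from each library, which left slopes of -0.0025 to 0.049. The leading principal component of the 8 libraries still held 59.3% of the variance after this removal, against 62.9% before.

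**Figure D1:**
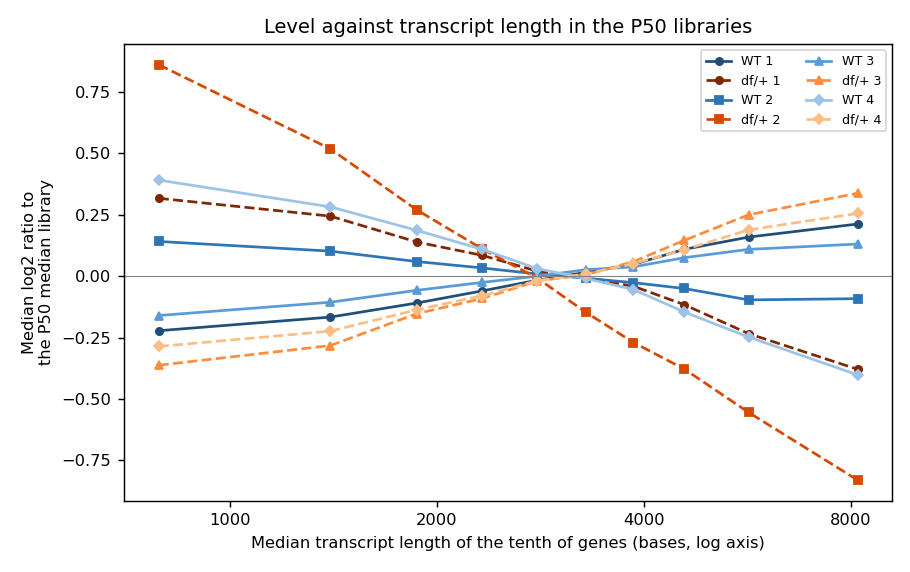
Median log2 ratio of each P50 library to the median P50 library (vertical axis) in 10 equal groups of the tested genes ordered by transcript length (horizontal axis, median length in bases on a log axis), with WT libraries as solid and df/+ libraries as dashed lines. Df/+ replicate 2 runs from 0.86 in the shortest group to -0.83 in the longest, and df/+ replicate 3 runs the other way, from -0.36 to 0.34.

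The genes of the deleted interval were examined next, since they are left with 1 copy in df/+. Its annotated bounds are the outer ends of Slx1b and Sept1, at 126689468 and 127233130 of chromosome 7 in GRCm38, which are 544 kb apart. It holds 56 genes of the table, 37 of them protein-coding, and 29 of the 56 had enough reads to be tested, 28 of them protein-coding. All 29 were lower in df/+, whereas 47% of all tested genes were lower in sign. Of the 29, 6 fell with an adjusted p under 0.05 in the quasi-likelihood F test of edgeR with Benjamini-Hochberg adjustment, where 0.0586% of all tested genes were called. At an unadjusted p under 0.05 there were 23 of the 29, all lower, against 4.26% of all tested genes in either direction (2.23% higher and 2.03% lower). The CPM values of the 4 df/+ libraries did not overlap those of the 4 WT libraries for 15 of the 29, against 1.83% of all tested genes. The median log2 fold change of the 29 was -0.94, which is 0.521 times WT, and ranged from -1.99 to -0.39 between genes.

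The 9 protein-coding genes that were not tested include Doc2a, Prrt2 and Qprt, with 11, 9 and 9 reads over the 4 WT libraries and 4, 5 and 1 over the 4 df/+ libraries. Doc2a and Prrt2 encode proteins of the presynaptic release machinery. These reads were too few for a comparison.

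The promoters of 4 called genes are shown to make visible how much their start regions differ. Each window spans 250 bases before to 50 bases after the RefSeq start (GRCm38.p6), written 5′ to 3′ on the strand of the gene, with CpG dinucleotides in capitals.
Tbc1d10b (chr7:127208419-127208718, minus strand): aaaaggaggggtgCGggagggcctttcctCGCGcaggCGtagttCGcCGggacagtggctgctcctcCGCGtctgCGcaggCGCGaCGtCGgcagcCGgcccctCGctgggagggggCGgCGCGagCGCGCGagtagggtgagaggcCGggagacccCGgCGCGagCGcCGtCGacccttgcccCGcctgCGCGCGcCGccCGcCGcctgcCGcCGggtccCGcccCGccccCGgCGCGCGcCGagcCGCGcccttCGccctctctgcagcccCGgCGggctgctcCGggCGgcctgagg
Maz (chr7:127026956-127027255, minus strand): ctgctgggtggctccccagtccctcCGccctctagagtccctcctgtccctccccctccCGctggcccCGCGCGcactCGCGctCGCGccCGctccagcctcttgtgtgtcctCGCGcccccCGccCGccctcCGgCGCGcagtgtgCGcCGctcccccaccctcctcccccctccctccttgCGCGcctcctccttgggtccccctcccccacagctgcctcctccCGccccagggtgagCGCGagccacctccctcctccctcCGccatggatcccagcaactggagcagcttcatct
Taok2 (chr7:126884918-126885217, minus strand): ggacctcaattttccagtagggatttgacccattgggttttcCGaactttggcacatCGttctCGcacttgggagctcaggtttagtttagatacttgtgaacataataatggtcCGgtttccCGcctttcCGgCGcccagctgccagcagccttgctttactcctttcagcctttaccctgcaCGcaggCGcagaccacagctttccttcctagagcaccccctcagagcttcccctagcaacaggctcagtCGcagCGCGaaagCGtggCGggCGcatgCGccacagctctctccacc
AI467606 (chr7:127091186-127091485, plus strand): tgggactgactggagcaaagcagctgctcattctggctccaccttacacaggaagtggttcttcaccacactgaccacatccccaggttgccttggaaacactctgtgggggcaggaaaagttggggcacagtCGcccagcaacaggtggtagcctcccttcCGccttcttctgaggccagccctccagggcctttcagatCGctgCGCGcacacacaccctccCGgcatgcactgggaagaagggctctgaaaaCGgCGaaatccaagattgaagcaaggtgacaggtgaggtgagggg
The window of Tbc1d10b held 51 CpG and was 80.3% GC, and only 0.7% of the 32807 promoter windows held as many. Maz had 25 CpG, Taok2 16 and AI467606 8, against a median of 7 over all windows. RefSeq windows were matched for 22 of the 29 tested interval genes. Taking for each gene its window with the most CpG, they held 2 to 51 CpG with a median of 20.5. The median of 7 is over single windows, so these medians are unlike measures. The letters GGGCGG on either strand were present in the windows of Tbc1d10b and Maz and in 35.6% of all windows. The letters TATAAA on either strand were in none of these 4 windows and in 13.6% of all windows. The RefSeq start of Taok2 lies 264 bases upstream of its annotated start, so its window lies wholly outside the annotated gene. That of AI467606 lies 77 bases inside the annotated gene.

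The dosage of the interval was then read library by library. Relative to the mean WT log level, the median of the 29 genes was -0.30, 0.13, -0.10 and 0.26 log2 units in WT replicates 1 to 4 and -0.87, -0.50, -1.33 and -1.33 in df/+ replicates 1 to 4. Every df/+ library lay below every WT library. The df/+ libraries nevertheless spanned ratios from 0.397 to 0.707 of WT, and the one nearest to WT was replicate 2, the library tilted toward short transcripts. After the length and GC trend had been removed, the df/+ medians were -1.03, -0.86, -1.01 and -1.14, or 0.489, 0.551, 0.498 and 0.455 of WT. Their SD went from 0.403 to 0.115 log2 units (n = 4), and that of the WT libraries from 0.248 to 0.0234. Counted gene by gene, 25, 18, 29 and 27 of the 29 genes lay below the lowest WT library in df/+ replicates 1 to 4. Over the 15339 genes outside the interval, the same share was 22.8%, 42.1%, 26% and 25.9%.

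**Figure D2:**
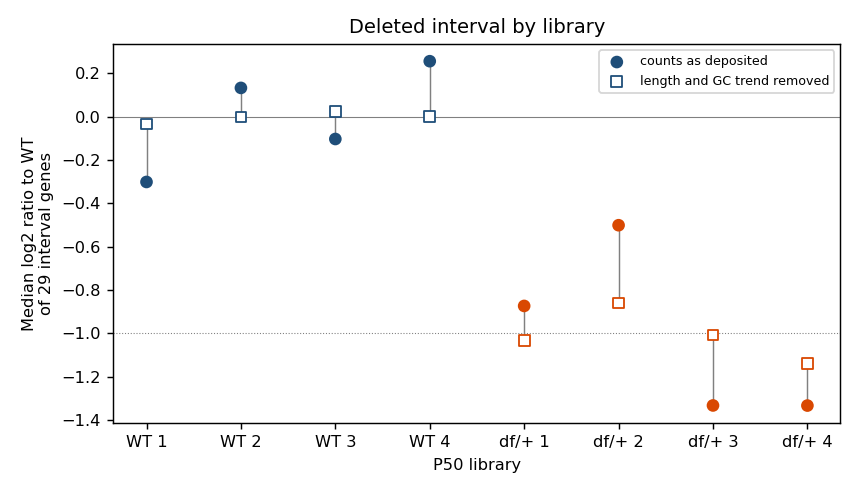
Median log2 ratio to WT of the 29 tested interval genes (vertical axis) in each P50 library (horizontal axis), from the counts as deposited (filled circles) and after removal of the length and GC trend (open squares), with a dotted line at 1 copy of 2. The 4 df/+ libraries spread from -1.33 to -0.50 before and from -1.14 to -0.86 after.

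Among the kinases, Taok2, which encodes a kinase of the MAP kinase and cytoskeletal pathways, stood at 249, 239, 267 and 228 CPM in WT replicates 1 to 4 and at 95.7, 100.2, 131 and 136 CPM in df/+. The 4 df/+ libraries lay well below the 4 WT libraries, with a gap wider than the spread inside either group. Taok2 fell from 246 ± 16.9 to 116 ± 20.8 CPM (SD, n = 4), a log2 fold change of -1.08 (SE 0.13, adjusted p = 0.00204 by the edgeR quasi-likelihood test). Mapk3, which encodes ERK1, a kinase that relays growth factor signals, stood at 388, 436, 366 and 459 CPM in WT and at 240, 293, 163 and 162 CPM in df/+. Its groups did not overlap either, and df/+ replicates 1 and 2 lay above replicates 3 and 4. Its log2 fold change of -0.94 (412 ± 42.3 to 215 ± 63.8 CPM) missed the threshold in edgeR with the counts as deposited (adjusted p = 0.072), and passed without df/+ replicate 2 (0.00305) and with DESeq2. Once length and GC trends were removed it was -1.0 and passed (adjusted p = 2.62e-05).

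Among the regulators of transcription and chromatin, Maz, a zinc finger transcription factor, fell from 253 ± 26 to 131 ± 24.5 CPM (log2 fold change -0.95, adjusted p = 0.0044, edgeR). Its values were 218, 252, 264 and 279 CPM in WT and 123, 168, 116 and 118 CPM in df/+, with df/+ replicate 2 the highest of its group and still below every WT library. Hirip3, which encodes a histone chaperone, fell by 1.16 on the log2 scale, from 11.8, 16.5, 15.6 and 20.2 CPM to 7.66, 7.34, 7.72 and 5.95 CPM (adjusted p = 0.0377, edgeR). That call was lost without any 1 of 6 libraries and held without WT replicate 1 or df/+ replicate 2, with adjusted p of 0.0137 to 0.184 over the 8 choices. Hirip3 overlaps Ino80e, a subunit gene of the INO80 chromatin remodelling complex on the opposite strand, over 406 bases. Ino80e had a log2 fold change of -0.81 and passed after removal of the trends (adjusted p = 0.00739, edgeR). Tbx6, a T-box factor of the early embryo, stood at 4.28 to 8.26 CPM in WT and 1.35 to 4.61 CPM in df/+, and did not pass.

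Genes of membrane traffic and lipids followed. Tbc1d10b encodes a GTPase-activating protein, which switches Rab GTPases off. Its level was 79.7, 80.5, 83.4 and 86.2 CPM in WT and 40.1, 53.0, 36.2 and 34.6 CPM in df/+. It had the narrowest WT spread of the called genes relative to its level, and its highest df/+ library, replicate 2, lay far below the lowest WT library. Tbc1d10b fell by 1.01 on the log2 scale (adjusted p = 0.0028, edgeR). Fam57b, which encodes a protein of ceramide metabolism, fell by 1.31, from 25.2, 40.4, 26.6 and 40.3 CPM to 17.6, 15.4, 9.87 and 10.4 CPM (adjusted p = 0.0238, edgeR). The call for Fam57b was lost without WT replicate 2 or 4 or df/+ replicate 3 or 4, with adjusted p up to 0.13. Cdipt, the enzyme that makes phosphatidylinositol, had a log2 fold change of -0.92 with an adjusted p of 0.371 from the counts as deposited and 1.01e-04 after removal of the trends (edgeR). It also passed without df/+ replicate 2 (0.0138, edgeR) and with DESeq2 and limma voom. AI467606, whose role is not known here, fell by 1.21 on the log2 scale, from 72.4, 83.3, 84.0 and 98.7 CPM to 43.5, 33.3, 31.8 and 38.1 CPM (adjusted p = 0.0028, edgeR). Taok2, Maz, Tbc1d10b and AI467606 stayed called in all 8 fits that left out 1 of the P50 libraries. Those fits kept the P14 libraries and their spread. With only the 8 P50 libraries none of these genes was called, with adjusted p of 0.52, 0.9998, 0.969 and 0.424 in that order (edgeR). None was called with replicate number as a block either.

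Other interval genes had values close to these but did not pass in edgeR with the counts as deposited. Of those named next, DESeq2 called Slx1b, Mvp, Ypel3, Cd2bp2 and Mylpf, voom called these and Kctd13, and edgeR without df/+ replicate 2 called Slx1b, Mvp, Ypel3 and Cd2bp2. Slx1b, a structure-specific endonuclease subunit, had a log2 fold change of -1.06, and Mvp, the main protein of the vault particle, had -0.98. Kctd13, an adaptor of the cullin 3 ubiquitin ligase, had -0.93, from 12.2 to 13.4 CPM in WT and 3.77 to 9.85 CPM in df/+. Ypel3 had -0.90 and Cd2bp2, a protein bound to the splicing machinery, had -0.85. Kif22, a mitotic kinesin, had -1.21 at 3.40 to 6.0 CPM in WT, and Mylpf, a myosin light chain of fast muscle, had -1.19. After removal of the length and GC trends, 15 of the 29 were called, against 0.117% of all tested genes, and their median was -0.98, or 0.508 times WT. These 15 included Mapk3, Cdipt, Ypel3, Mvp, Mylpf, Slx1b, Aldoa, Ino80e and Tmem219 besides the 6 named above.

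Some of the smallest differences belonged to short transcripts. Other short transcripts had larger falls, such as Mylpf (766 bases, log2 fold change -1.19) and Tmem219 (1118 bases, -0.93). Sez6l2, on a transcript of 3732 bases, had only -0.68. Bola2, which encodes a protein of iron-sulphur cluster assembly on a transcript of 1266 bases, had a log2 fold change of -0.39. It stood at 21.7, 36.2, 21.2 and 43.6 CPM in WT and at 18.4, 60.4, 7.43 and 7.93 CPM in df/+, so df/+ replicate 2 was the highest of all 8 libraries and replicates 3 and 4 the lowest. Ppp4c, the catalytic subunit of a protein phosphatase, on a transcript of 1400 bases, stood at 75.8, 98.8, 87.5 and 118 CPM in WT and at 63.8, 123, 39.0 and 37.6 CPM in df/+. It showed the same order, with df/+ replicate 2 above every WT library, and a log2 fold change of -0.53. Aldoa, a glycolytic enzyme, had -0.73. With the trends removed the values became -0.67 for Bola2, -0.65 for Ppp4c and -0.82 for Aldoa, of which only that of Aldoa passed (adjusted p = 0.00782, edgeR). With the counts as deposited, the 95% confidence interval of the log2 fold change included -1, the value of 1 copy of 2, for all 29 genes. For 23 it also excluded 0. Some of these intervals were wide, such as -1.46 to 0.69 for Bola2. With the trends removed, the interval included -1 and excluded 0 for 24 of the 29.

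Values of some interval genes are uncertain for another reason. Whether the counting used strand is not stated, and 13 of the 29 genes overlap another of the 29 on the opposite strand, in 7 pairs. Kif22 also overlaps Gm31749, an antisense gene of the interval that had 29 reads in WT and 12 in df/+ and was not tested, and other untested genes overlap further members. The longest overlaps were 7568 bases between Gdpd3 and Gm9967 and 3084 bases between Aldoa and Fam57b. Genes near the detection limit had the widest intervals. Asphd1, at 0 to 0.902 CPM over the 8 libraries, had a log2 fold change of -0.40 with an interval of -1.89 to 1.09. It turned positive without df/+ replicate 2 and WT replicate 4 (0.093). Spn, a sialoglycoprotein of white blood cells, had the lowest value of the 29, -1.99, at 0.209 to 0.936 CPM in WT and 0 to 0.214 CPM in df/+.

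**Figure D3:**
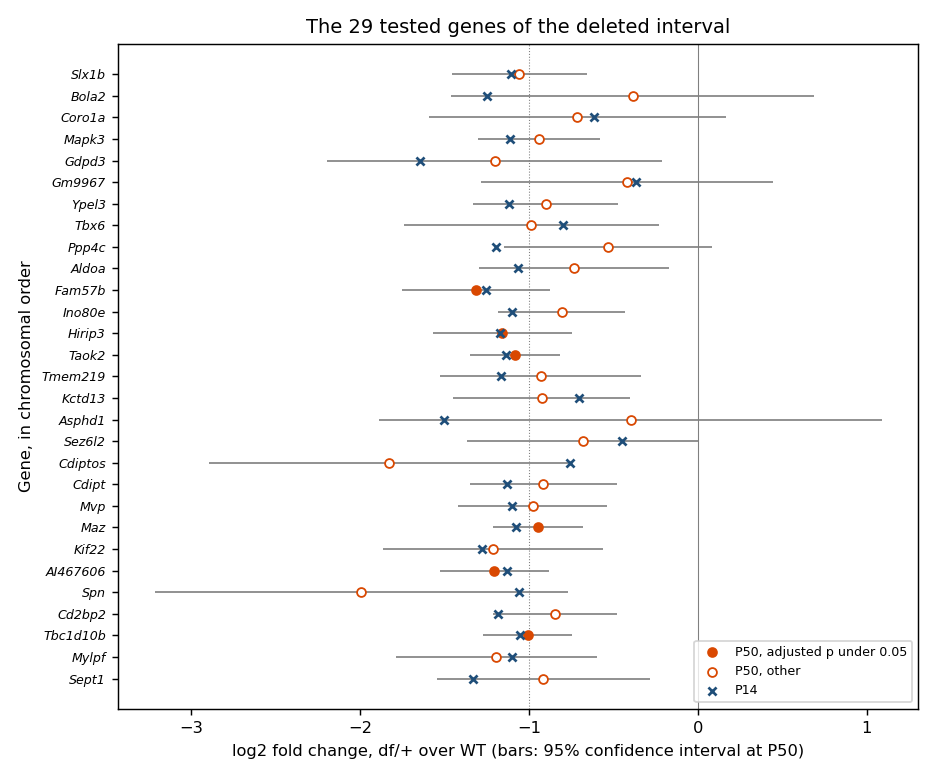
Log2 fold change of df/+ over WT (horizontal axis) for the 29 tested interval genes in chromosomal order (vertical axis), with 95% confidence intervals at P50 as bars, filled circles for the 6 genes called at P50, open circles for the others and crosses for P14. With the counts as deposited, which are shown, all points at P50 lie below 0, and all 29 bars include the dotted line at -1.

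The interval genes were also lower at P14, all 29 of them. Their median log2 fold change was -1.11 at P14 against -0.94 at P50, and 0 of the 29 differed between the ages, whether by adjusted p or at an unadjusted p under 0.05. In this test of the difference of genotype effects, 0% of all tested genes passed at an adjusted p under 0.05 and 1.98% at an unadjusted p under 0.05. Genes beside the interval were read in the same way. Of the 72 tested genes within 2 Mb on either side, 39 were lower, 0 were called and 2 had an unadjusted p under 0.05, and their median was -0.02. Over all tested genes 47% were lower, 0.0586% were called and 4.26% had an unadjusted p under 0.05, with a median of 0.016.

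Outside the interval, 3 of 15339 genes passed in edgeR with the counts as deposited: 1 rose and 2 fell. All 3 lie on chromosome 2. With only the 8 P50 libraries in the fit, whose biological coefficient of variation was 37.0% against 29.1% for all 16, 0% of 14703 genes were called and 215 had an unadjusted p under 0.05.

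The gene that rose was a, which encodes the agouti signalling protein. Agouti blocks a melanocortin receptor and sets coat colour, and its main known site of action in mice is the hair follicle. Reads of a numbered 0, 0, 1 and 0 in WT replicates 1 to 4 and 154, 241, 76 and 70 in df/+, or 8.68, 16.8, 4.41 and 3.75 CPM. All 4 df/+ libraries held reads in numbers that no WT library approached. The level in df/+ was 498 times that in WT, with a 95% interval of 89.1 to 19717 that covers counting error only, and the adjusted p was 7.79e-04 by the edgeR quasi-likelihood test. With only the 8 P50 libraries the adjusted p was 0.0947. The call held in all 8 fits that left out 1 P50 library. At P14 the fitted log2 fold change of a was 3.37 and did not pass (adjusted p = 0.147), and the difference between ages had an unadjusted p of 0.00111 and an adjusted p that did not pass. The gene spans GRCm38 chromosome 2, 154791402 to 155051012, on the plus strand.

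Zswim1 and Spata25 fell. Zswim1, which encodes a zinc finger protein of the SWIM type, stood at 18.1, 35.8, 24.4 and 30.4 CPM in WT and at 10.6, 12.2, 10.6 and 13.3 CPM in df/+. Its df/+ libraries were close together and all below the lowest WT library. It fell from 27.2 ± 7.63 to 11.7 ± 1.34 CPM, a log2 fold change of -1.22 (SE 0.18, adjusted p = 0.0177, edgeR). Spata25, named for its link to spermatogenesis, fell from 5.10, 11.4, 7.25 and 7.98 CPM to 1.80, 3.21, 2.61 and 2.41 CPM, a log2 fold change of -1.66 (SE 0.28, adjusted p = 0.0377, edgeR). Its groups did not overlap. Without WT replicate 2 or 4 or df/+ replicate 1 or 3, neither gene was called, with adjusted p of 0.0799 to 0.111 for Zswim1 and 0.144 to 0.198 for Spata25. Spata25 was also lost without WT replicate 3 (0.0754) and without df/+ replicate 4 (0.167), and after removal of the trends (0.0536).

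These genes are neighbours. Zswim1 (chromosome 2, 164822686 to 164826871, plus strand) and Spata25 (164826389 to 164828537, minus strand) overlap over 483 bases on opposite strands, so without knowledge of how the counting treated strand their reads cannot be assigned to 1 of them with certainty. They lie 9.77 Mb from a. Each of the pair had 39 other tested genes within 1 Mb, of which 24 were higher and 15 lower (47% of all tested genes were lower). The only one called was the other gene of the pair (0.0586% of all tested genes were called). Among these neighbours, and named after their values were seen, Elmo2, a regulator of Rac signalling, had a log2 fold change of -0.40 and Ctsa, a lysosomal carboxypeptidase, -0.31, and neither passed in edgeR with the counts as deposited. Voom called Ctsa and Neurl2 (-0.59 in edgeR), and edgeR with offsets and without df/+ replicate 2 called Ctsa. Of the 33 tested genes within 1 Mb of a, 23 were higher, 10 lower and 0 called, beside the same 47% lower and 0.0586% called over all tested genes. At P14 the log2 fold changes of Zswim1 and Spata25 were -0.21 and -0.19, and the difference between ages had unadjusted p of 0.00146 and 0.00214, which did not pass after adjustment.

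The promoter windows of a and Spata25 are shown because they are the called genes outside the interval with a RefSeq entry, in the same form as above.
a (chr2:155013320-155013619, plus strand): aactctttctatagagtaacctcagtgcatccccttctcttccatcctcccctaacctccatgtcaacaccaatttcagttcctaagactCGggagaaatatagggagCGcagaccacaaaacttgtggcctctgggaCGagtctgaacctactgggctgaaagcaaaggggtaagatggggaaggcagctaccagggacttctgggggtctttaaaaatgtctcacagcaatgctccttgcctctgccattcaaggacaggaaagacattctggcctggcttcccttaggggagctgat
Spata25 (chr2:164828485-164828784, minus strand): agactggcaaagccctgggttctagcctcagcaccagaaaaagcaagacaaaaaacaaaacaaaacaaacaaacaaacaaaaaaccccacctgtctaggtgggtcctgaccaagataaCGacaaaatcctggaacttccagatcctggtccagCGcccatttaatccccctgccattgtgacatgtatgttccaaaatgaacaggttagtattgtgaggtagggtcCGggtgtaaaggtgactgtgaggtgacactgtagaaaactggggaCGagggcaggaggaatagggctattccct
They held 3 and 4 CpG. The RefSeq start of a lies 222168 bases inside the annotated gene, so its window belongs to a start other than the most upstream one. GGGCGG and TATAAA were in neither window.

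Ret, which encodes a receptor tyrosine kinase for ligands of the GDNF family, stood at 134, 138, 99.2 and 108 CPM in WT and at 54.1, 41.9, 81.6 and 88.0 CPM in df/+. The groups did not overlap, and df/+ replicates 1 and 2 were the lowest. Its log2 fold change was -0.85 with an adjusted p of 0.391 from the counts as deposited and -0.82 with an adjusted p of 0.00782 once length and GC trends were removed (edgeR). After that removal, a, Zswim1 and Ret were the called genes outside the interval. An unadjusted p under 0.05 was then reached by 6.37% of all tested genes. Of these, 645 were higher and 334 lower, against 343 and 312 with the counts as deposited. The median log2 fold change over all tested genes was 0.067 after the removal and 0.016 before. All values thus lay somewhat higher, and the part of this shift in the excess of higher genes was not tested.

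Tyr, which encodes tyrosinase, the first enzyme of melanin synthesis, was chosen after its values were seen, because it was called when df/+ replicate 2 was left out. Its reads numbered 17, 0, 42 and 46 in df/+ replicates 1 to 4 and 0 in all 4 WT libraries. Replicate 2 of df/+ thus looked like the WT libraries, and the other 3 did not. Over the group the level was at least 32.2-fold higher in df/+, with a floor of 3 reads over the WT group. The adjusted p was 0.497 with all libraries and 0.00777 without df/+ replicate 2 (edgeR). Tyr lies on chromosome 7 from 87424771 to 87493512, outside the interval and its flanks. Melanin genes are not known as genes of brain endothelium.

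**Figure D4:**
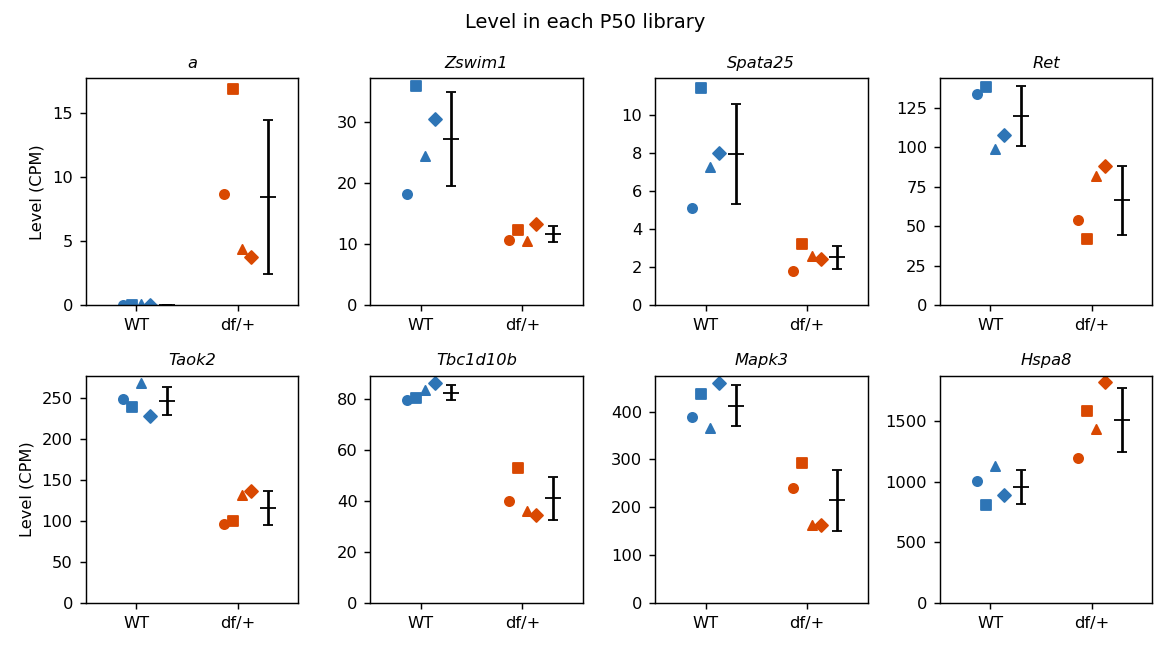
Level in CPM (vertical axes) of 8 genes in the 4 WT and 4 df/+ libraries at P50 (horizontal axes), with circles, squares, triangles and diamonds for replicates 1 to 4 and bars for mean ± SD. The groups do not overlap in any of the 8 panels, and df/+ replicate 2 is the highest df/+ library for a, Spata25, Tbc1d10b and Mapk3.

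Over all tested genes, 281 had groups that did not overlap. Of the 10 such genes outside the interval with the smallest p in each direction, a, Zswim1 and Spata25 passed in edgeR and the others did not. DESeq2 also called Chga, Hspa8, Spon2, Emp2, Ret, Fbxl2 and Gm42528. Most of the others are described here. Hspa8, the constitutive cytosolic chaperone of the Hsp70 family, stood at 1005, 811, 1130 and 895 CPM in WT and at 1201, 1583, 1439 and 1824 CPM in df/+. All df/+ libraries lay above all WT libraries, with a log2 fold change of 0.66 (960 ± 138 to 1512 ± 261 CPM, adjusted p = 0.429, edgeR, and 0.0145, DESeq2). Its value at P14 was -0.00. Chga, which encodes chromogranin A of neuroendocrine granules, was at 1.89, 1.72, 0.976 and 1.65 CPM in WT and at 3.55, 3.35, 40.9 and 35.4 CPM in df/+. Its log2 fold change of 3.73 rested mostly on df/+ replicates 3 and 4. Other higher genes were Adamts7 (1.21), Spon2 (1.82), Rtkn2 (1.72), Tceal9 (0.92), Gm10069 (1.32) and Dcdc2a (0.70), each given as its log2 fold change.

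Among the lower genes, Emp2, a membrane protein of the tetraspan family, stood at 279, 249, 229 and 224 CPM in WT and at 196, 144, 157 and 156 CPM in df/+, a log2 fold change of -0.59 (adjusted p = 0.227, edgeR). Its groups were well separated, and its value at P14 was 0.12. Ret, Fbxl2 (-0.58), Gm42528 (-0.86), Cit (-0.81) and Slc52a3 (-0.42) were also in this set.

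Gene lists of endothelial programmes and of other cell types were then read by their counts and medians. The median over all tested genes was 0.016 with the counts as deposited. It was 0.067 after removal of the trends and 0.005 without df/+ replicate 2. In none of the 34 lists did the edgeR test call any member, whether with the counts as deposited, after removal of the trends or without df/+ replicate 2. DESeq2 called Slc22a8 and Hspa8 among the list members. The lists that define the endothelium lay near the median of all genes. Endothelial identity had 14 members higher and 18 lower with a median of -0.01 (-0.05 without df/+ replicate 2), and 0 of 32 had an unadjusted p under 0.05. Tie1, an endothelial receptor kinase, stood at 1369 to 1448 CPM in WT and 1043 to 1313 CPM in df/+, a log2 fold change of -0.22 that did not pass. The 4 genes for which the labels give primers were also close to WT. Nos3, the endothelial nitric oxide synthase, was 481 ± 27.3 CPM in WT and 485 ± 101 CPM in df/+. Pecam1, which encodes CD31, was 1457 ± 126 and 1452 ± 220 CPM. Kdr, the main VEGF receptor, was 900 ± 236 and 780 ± 291 CPM, and Gapdh, used as a reference, was 274 ± 76.5 and 315 ± 130 CPM. The signs of these 4 small differences changed between alternatives.

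Genes of the barrier showed small differences. Of 29 blood-brain barrier transporters, 11 were higher and 18 lower with a median of -0.04, and 2 had an unadjusted p under 0.05, both lower (2.03% of all tested genes). The median was 0.03 without df/+ replicate 2. Slc22a8, an organic anion transporter, stood at 1005, 961, 1006 and 1101 CPM in WT and at 761, 726, 826 and 881 CPM in df/+. All df/+ libraries were below all WT libraries by a modest margin, a log2 fold change of -0.35 (adjusted p = 0.815, edgeR, and 0.0191, DESeq2). Slc52a3, a riboflavin transporter, stood at 195, 247, 169 and 198 CPM in WT and 162, 156, 142 and 143 CPM in df/+. Slc2a1, the glucose transporter of the barrier, was 3057 to 4720 CPM in WT and 3796 to 5810 CPM in df/+, with overlapping groups. Of 23 genes of junctions and barrier regulators, 10 were higher and 13 lower, and none had an unadjusted p under 0.05. Cldn5, the main claudin of the barrier, stood at 3889, 5549, 4197 and 5794 CPM in WT and at 6531, 13401, 3114 and 2598 CPM in df/+, so the df/+ group held both the highest and the lowest libraries. Of 28 Wnt and beta-catenin targets, 5 were higher and 23 lower with a median of -0.12, which was 0.01 without df/+ replicate 2.

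Signalling and vessel growth genes included a few at an unadjusted p under 0.05. Of 31 genes of VEGF signalling and tip cells, 18 were higher and 13 lower, and 4 had an unadjusted p under 0.05, all higher (2.23% of all tested genes). Angpt2, a ligand of the Tie2 receptor, had a log2 fold change of 0.92. Apln, a peptide of sprouting tip cells, had 1.05, with 69.2 CPM in df/+ replicate 1 and 12.3 to 19.4 CPM in the other 3 df/+ libraries, against 12.7 to 15.9 CPM in WT. Igfbp3, which binds insulin-like growth factors, had 1.03, with 257 CPM in df/+ replicate 4 against 48.7 to 101 CPM in WT. For Apln and Igfbp3, 1 df/+ library stood far above the rest of its group. Of 35 genes of the ERK cascade and its feedback, 20 were higher and 15 lower with a median of 0.04 (0.08 without df/+ replicate 2). Etv5, an ETS transcription factor induced by ERK signalling, stood at 8.50, 8.79, 9.41 and 9.75 CPM in WT and at 12.9, 11.6, 12.4 and 16.7 CPM in df/+, a log2 fold change of 0.56 (adjusted p = 0.815, edgeR). Its groups did not overlap. Dusp6 and Spry4, feedback inhibitors of the same cascade that were named after their values were seen, had -0.21 and 0.24.

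The remaining vascular lists were similar. Of 25 Notch and arterial genes, 14 were higher and 11 lower, and Heyl, a Notch target, and Alpl, an alkaline phosphatase of arterial endothelium, had log2 fold changes of -0.40 each. Of 20 venous and capillary-venous genes, 11 were higher and 9 lower. Of 43 genes of nitric oxide and vasoreactivity, 30 were higher and 13 lower with a median of 0.13. Of 32 genes of TGF-beta and BMP signalling, 18 were higher and 14 lower. Of 30 basement membrane genes, 16 were higher and 14 lower, and 4 had an unadjusted p under 0.05, all higher (2.23% of all tested genes). Serpinh1, a collagen chaperone, was 394 to 556 CPM in WT and 514 to 678 CPM in df/+, with a log2 fold change of 0.41 (adjusted p = 0.856, edgeR), and Lamb1, a laminin chain, had 0.29.

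**Figure D5:**
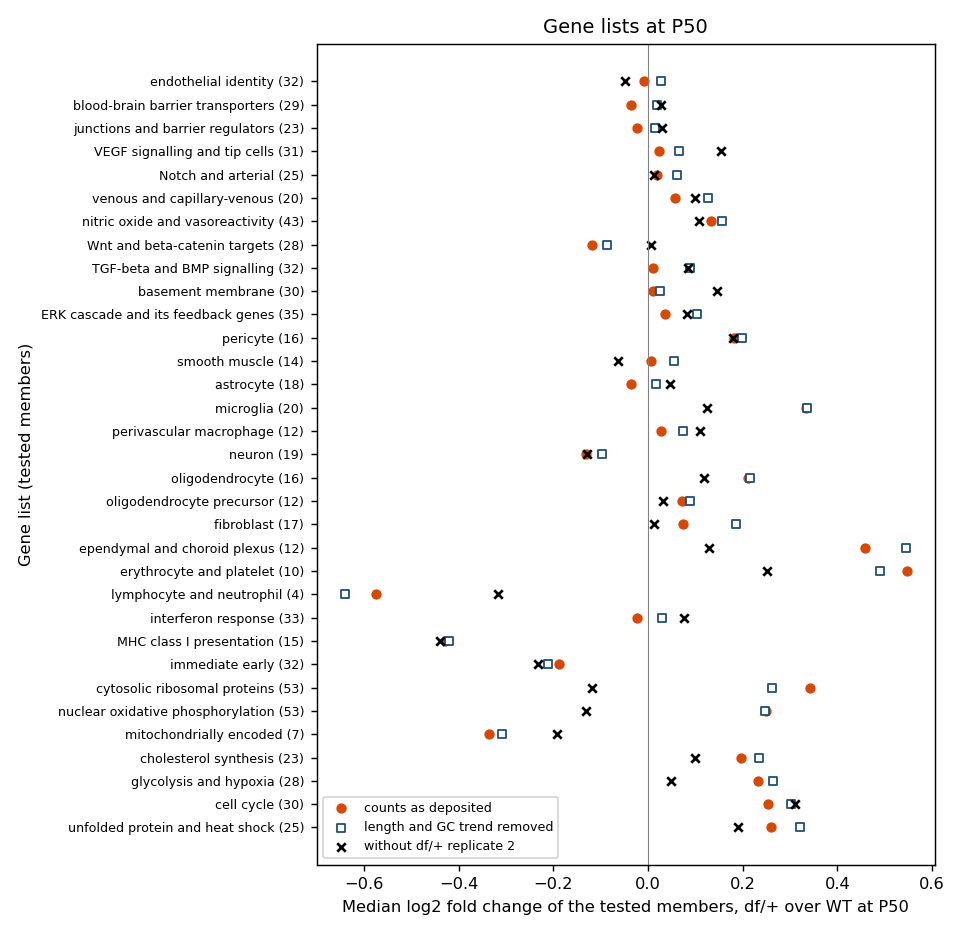
Median log2 fold change of df/+ over WT (horizontal axis) of the tested members of each gene list (vertical axis, number of tested members in brackets), from the counts as deposited (circles), after removal of the length and GC trend (open squares) and without df/+ replicate 2 (crosses). The lists of cytosolic ribosomal proteins and nuclear oxidative phosphorylation lie at 0.34 and 0.25 with all libraries and at -0.12 and -0.13 without df/+ replicate 2.

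The unfolded protein and heat shock list had the most members at an unadjusted p under 0.05, 8 of 25, all higher, against 2.23% of all tested genes that were higher at that threshold. In it 20 members were higher and 5 lower, with a median of 0.26, and of 0.19 without df/+ replicate 2. Hsph1, a cochaperone of the Hsp110 family, stood at 86.4, 55.1, 88.9 and 43.6 CPM in WT and at 65.6, 107, 126 and 196 CPM in df/+, with a log2 fold change of 0.85. Its groups overlapped through df/+ replicate 1. Hspd1, the mitochondrial chaperonin, had 0.42 with 68.9 to 97.6 CPM in WT and 86.9 to 124 CPM in df/+. The cytosolic Hsp90 genes Hsp90ab1 and Hsp90aa1 had 0.45 and 0.52. None of these passed after adjustment. The median of the list at P14 was -0.01.

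The values of a pair of lists of short, abundant transcripts turned on df/+ replicate 2. Of 53 cytosolic ribosomal protein genes 52 were higher, with a median of 0.34, and 0 had an unadjusted p under 0.05. Of 53 nuclear genes of oxidative phosphorylation 52 were higher, with a median of 0.25, and 0 again had an unadjusted p under 0.05. The mean log2 level of the ribosomal list relative to WT was 0.52, 1.20, -0.68 and -0.40 in df/+ replicates 1 to 4 and -0.31 to 0.46 in WT. The highest was df/+ replicate 2 and the lowest df/+ replicate 3, as for the length slopes. After removal of the length and GC trends the medians of these lists were still 0.26 and 0.25, with 51 and 52 of 53 members higher. Without df/+ replicate 2 the medians turned to -0.12 and -0.13. The 7 tested mitochondrially encoded genes were all lower, with a median of -0.34, and of -0.19 without df/+ replicate 2.

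Other processes were also read in this way. Of 30 cell cycle genes, 17 were higher and 13 lower with a median of 0.25, and 5 had an unadjusted p under 0.05, all higher (2.23% of all tested genes). Ccna2, an S phase cyclin, stood at 0.992 to 1.53 CPM in WT and 1.69 to 3.14 CPM in df/+, with groups that did not overlap. Of 28 genes of glycolysis and hypoxia, 22 were higher with a median of 0.23, which was 0.05 without df/+ replicate 2. Of 23 genes of cholesterol synthesis, 17 were higher with a median of 0.20, which was 0.10 without df/+ replicate 2. Of 32 immediate early genes, which respond fast to stimulation, 22 were lower with a median of -0.19. Fosb stood at 2972, 2658, 622 and 414 CPM in WT and at 676, 1118, 371 and 1182 CPM in df/+, so WT replicates 1 and 2 were high and the groups overlapped. Of 33 interferon response genes, 14 were higher and 19 lower with a median of -0.02, which was 0.08 without df/+ replicate 2.

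The 15 genes of MHC class I presentation were all lower, with a median of -0.43, and 3 had an unadjusted p under 0.05. Over all tested genes 47% were lower in sign and 2.03% were lower at that threshold. The groups overlapped for all 15 members. The mean log2 level of the list relative to WT was -0.89, 1.08, -0.17 and -0.02 in WT replicates 1 to 4. In df/+ replicates 1 to 4 it was -0.05, -0.77, -0.72 and -0.78, so the lowest P50 library was WT replicate 1 and the list levels overlapped. H2-Q6, a non-classical class I gene, stood at 5.61, 248, 20.4 and 13.9 CPM in WT and at 17.3, 1.61, 9.06 and 5.31 CPM in df/+. WT replicate 2 was far above the other 7 libraries, which overlapped between the groups. H2-Q4 had the same high library, with 421 CPM in WT replicate 2, 111 to 173 CPM in the other WT libraries and 89.7 to 142 CPM in df/+. These genes belong to a family of near-identical copies, between which the counting can split reads. The median of the list at P14 was -0.45.

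RNA of other cells was present in every library. The 16 oligodendrocyte markers summed to 11432 to 28516 CPM in WT and 11173 to 24436 CPM in df/+, led by Mbp, and 11 were higher and 5 lower. The 12 ependymal and choroid plexus markers were all higher, with a median of 0.46 that was 0.13 without df/+ replicate 2, and summed to 1620 to 17663 CPM in WT and 2230 to 43254 CPM in df/+. Ttr, the transthyretin gene of choroid plexus, stood at 1518, 13602, 4442 and 17165 CPM in WT and at 16670, 42509, 6289 and 2088 CPM in df/+, with overlapping groups. Of 16 pericyte markers 15 were higher with a median of 0.18, and their sums were 4095 to 6238 CPM in WT and 4789 to 6136 CPM in df/+. The 18 astrocyte markers summed to 4327 to 5676 and 4525 to 6069 CPM, and Gfap stood at 239 CPM in df/+ replicate 1 against 20 to 42.6 CPM in the other 7 libraries.

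Immune and blood markers were low or overlapped. Of 20 microglial markers 17 were higher with a median of 0.33, or 0.12 without df/+ replicate 2, summing to 80.6 to 139 CPM in WT and 87.9 to 212 CPM in df/+. At P14 the median of this list was 1.57. The 12 markers of perivascular macrophages summed to 256 to 311 and 234 to 335 CPM. Of the 15 lymphocyte and neutrophil markers only 4 were tested, they summed to at most 7.32 CPM in any library, and Ly6g was at 0 in all. Of 10 tested erythrocyte and platelet markers 9 were higher with a median of 0.55, or 0.25 without df/+ replicate 2, and their sums were 812 to 2979 CPM in WT and 989 to 5789 CPM in df/+. The 19 neuronal markers had 7 higher and 12 lower, with sums of 212 to 391 and 173 to 301 CPM. Smooth muscle, fibroblast and oligodendrocyte precursor lists had medians of 0.01, 0.07 and 0.07, and of -0.06, 0.01 and 0.03 without df/+ replicate 2. All these ranges overlapped between the genotypes, and their part in the results was not tested.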

How the data were processed

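The authors deposited whole-number read counts for each Ensembl gene. STAR 2.5.3a, DESeq2 and GRCm38.p5 are named in the submitters' processing notes, and how the counting treated strand is not stated there. The deposited mapping summary gives mapped reads as a fraction per library, per the file headers, and was used only to describe the libraries. Genes were kept by filterByExpr of edgeR 4.0.16 in R 4.3.3 (minimum count 10, 0.647 CPM in 4 libraries). The quasi-likelihood F test used TMM factors (0.917 to 1.05) and 1 mean per group over all 16 libraries, with 12 residual degrees of freedom. A gene was called at a Benjamini-Hochberg adjusted p under 0.05. P-values at P50 thus rest partly on the P14 spread. Replicates were taken as separate pools. They differed by a chi-square of 32.5 to 292 per degree of freedom, so none was a repeat sequencing of the same library. Whether any shared the same RNA cannot be read from this value. Symbols were found for 52489 of 52636 IDs. The length and GC trend was a natural spline with 5 degrees of freedom per library, entered as an offset. DESeq2 1.42.0 and limma 3.58.1 gave alternatives. The steps were tried on simulated data with the same spread in all groups and a length tilt in at most 1 library. That setting is simpler than the P50 libraries, so it does not show how the calls hold there. Named genes were all interval genes, all called genes, the 10 rises and 10 falls with the smallest p among non-overlapping groups, up to 3 members of each list with the smallest p, the 2 most abundant markers of each other cell type, and 4 genes with primers in the labels; Cdh5 was added as a check of the cells. Members and lists were chosen with earlier results of these data known. Some named genes are not reported here.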

Additional observations from a re-analysis of the deposited data

Results flagged for a closer look

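Of 106 sets of 4 libraries tested, 9 had 1 library far from the other 3 by the gap divided by the range, and chance gives about 1 in 20. List levels are the mean log2 CPM of a list relative to the mean of the WT libraries. In df/+ replicate 2 the level was -0.347 for nitric oxide and vasoreactivity (0.109 to 0.194 in the other 3 df/+ libraries), -0.497 for Wnt and beta-catenin targets (-0.0347 to 0.0403) and -3.83 for lymphocyte and neutrophil markers (0.00545 to 0.485). The CPM of Maz in the same library was 168 (116 to 123 in the others). In df/+ replicate 1 the astrocyte list stood at 0.517 (-0.139 to -0.115) and MHC class I presentation at -0.0485 (-0.779 to -0.715). In WT replicate 1 the erythrocyte and platelet list stood at -0.644 (0.163 to 0.271 in the other WT libraries) and the interferon response list at -0.262 (0.0688 to 0.113). The level of a was 0.0697 CPM in WT replicate 3, from 1 read, and 0 in the other WT libraries.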

How the results depend on the processing

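The count of 9 called genes (3 outside the interval, 6 inside) depended on the fit. DESeq2 called 31 (17 and 14), with 7 adjusted p given as NA. Limma voom with sample quality weights called 34 (15 and 19), and 0 were called with the 8 P50 libraries alone (0 and 0). Length and GC offsets gave 18 calls (3 and 15), and 3 (1 and 2) with the 8 P50 libraries alone. Without df/+ replicate 2, a choice made after seeing the data, the offsets gave 26 (8 and 18). Leaving out 1 library at a time gave 5 to 16 calls (1 to 4 outside, 4 to 12 inside), the highest without df/+ replicate 2. The calls split 1 higher and 8 lower in the report, 7 and 24 with DESeq2, 5 and 29 with voom and 1 and 17 with the offsets. Genes at an unadjusted p under 0.05 split 343 higher and 312 lower, and 645 and 334 with the offsets. The median log2 fold change over all tested genes was 0.016 and 0.067 in these fits.

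Same-numbered libraries of the 2 genotypes had correlations of -0.18, 0.22, 0.43 and -0.50. The numbers follow the titles, and those in the column headers of the P50 WT libraries differ from them. These few values cannot show whether libraries were made in pairs, and the numbers are used here only as names. A fit with replicate number as a block called 1 gene (1 outside, 0 inside), and 0 (0 and 0) with the 8 P50 libraries alone.

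The median of the interval genes moved by less than the spread between df/+ libraries, an SD of 0.403 log2 units, in every alternative run. This margin is wide, since the same SD was 0.115 after removal of the trends. The difference in mean length slope turned to 0.0173 without WT replicate 1, 0.00197 without df/+ replicate 1 and 0.0794 without df/+ replicate 2, within a leave-one-out range from -0.0988 to 0.0794. Small fold changes changed sign, each on the log2 scale. Asphd1 was 0.0935 without df/+ replicate 2 and WT replicate 4 and 0.0689 with offsets and without df/+ replicate 2, and from -0.884 to -0.015 leaving out 1 library. Nos3 was -0.00916 with the replicate block, -0.252 with voom, -0.123 without df/+ replicate 2 and WT replicate 4, -0.0739 with offsets and without df/+ replicate 2, and from -0.0986 to 0.11 leaving out 1 library. Pecam1 was 0.00706 with DESeq2, 0.00698 with RLE and 0.00659 with upper-quartile normalization, 0.0125 with a minimum count of 30, 0.0126 with the 8 P50 libraries alone and 0.00433 with the replicate block on these. It was 0.0673 with length offsets, 0.0671 with length and GC offsets, 0.0680 with the block and 0.0617 on the 8 P50 libraries with these offsets. It was 0.126 with voom, 0.0357 without df/+ replicate 2 and WT replicate 4, 0.0515 with offsets and without df/+ replicate 2, and from -0.0785 to 0.0846 leaving out 1 library. Kdr was 0.0917 and Gapdh -0.215 with voom, and Gapdh ranged from -0.0676 to 0.399 leaving out 1 library. The cause was not tested. For the single genes named, 1738 values kept direction and side of the threshold, 82 gained the call, 66 lost it and 30 reversed.

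Depth limits genes of few reads, such as a and Tyr, whose WT level rests on 1 and 0 reads. With 4 pools per group, differences smaller than the spread between libraries cannot be seen, and the tilt of df/+ replicate 2 enters every mean of the group.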
